A study of Mus musculus with 8 samples.

Results

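The genes described here encode the nuclear end of the Hippo pathway. They are Yap1, Wwtr1 (which encodes TAZ), the 4 TEAD genes Tead1, Tead2, Tead3 and Tead4, and the 2 VGLL genes Vgll3 and Vgll4, 8 of the 17758 protein-coding genes that had an ATAC-seq peak in their window in at least 1 library. The window of a gene was its body plus 5 kb on either side of every annotated transcription start site (TSS) in GENCODE M21. A peak was assigned to a gene when it overlapped this window. Merging the peaks of all libraries gave 183173 regions, of which 140 belonged to the 8 genes.

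ATAC-seq, in which the Tn5 transposase cuts and tags open chromatin, was performed on cells grown from mammary tumors of FBV/N mice driven by the polyoma middle T antigen (PyMT), expressed from the MMTV promoter. The tumors were WT or carried a knockout of the Hippo kinase gene Lats1 that the labels call Lats1-CKO, and what drives the deletion is not given in the sources used here. Cultures of each genotype were sorted into luminal (EpCAM-high, CD49f-high) and basal-like (EpCAM-low, CD49f-high) cells and briefly expanded before tagmentation, with 2 libraries in each of the 4 groups. The WT pairs were BM1 with BM5 for luminal and BM2 with BM6 for basal-like cells. The Lats1-CKO pairs were BM3 with BM7 for luminal and BM4 with BM8 for basal-like cells. Every library came from PyMT-driven cultures rather than from untransformed gland.

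YAP and TAZ are transcriptional coactivators that cannot bind DNA on their own. When the kinases LATS1 and LATS2 are active they phosphorylate YAP and TAZ, which are then kept in the cytoplasm or degraded. Otherwise YAP and TAZ enter the nucleus and bind TEAD proteins, which recognise the letters GGAATG, and VGLL proteins bind TEADs at a surface that overlaps the one used by YAP and TAZ. The comparison of genotypes asked how the absence of LATS1 bears on open chromatin, and the comparison of populations how luminal and basal-like cells differ.

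The lists held 51497 to 99022 peaks per library, except for BM3 with 14753. In BM3, 53.1% of the peaks lay within 1 kb of a protein-coding TSS, against 21.04% to 29.7% in the others. The study's methods state that 1 Lats1-CKO luminal library was set aside for quality without naming it, and genotype differences of the 8 genes that are printed with a test are therefore given with and without BM3. Luminal markers had a TSS peak for 12, 11 and 11 of 12 genes in the luminal libraries BM1, BM5 and BM7, and for 6 in BM3. In basal-like libraries 6 to 10 of them had one. Basal markers had one for 3 to 7 of 10 genes in luminal and for 4 or 5 in basal-like libraries, and the TSS of Trp63 had none in any library, so the basal list did not separate the sorted populations in these peaks. Immune markers had a TSS peak for 0 to 4 of 6 genes and endothelial markers for 0 to 2 of 5 in any library. A Lats1 TSS peak was called in every library but BM3, and since the position of the deletion within the gene is not given in the labels, these peaks do not check the genotype.

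Each peak carries a score that is not comparable between libraries, so peaks are described by their score percentile, the rank of a peak's score among all peaks of its own library from 0 (weakest) to 100 (strongest). Positions are distances from the outermost annotated start of the gene in the direction of transcription, with negative values upstream.

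The promoter sequences of these genes shared one feature that the choice of genes did not use. RefSeq promoters (GRCm38.p6, 250 bases before to 50 after a start) were on hand for 6 of the 8 genes, and in 5 of the 6 (83.3%) the promoter held GGAATG or its reverse complement CATTCC. The same letters were in the promoters of 15.1% of the 13526 genes tested with an entry. The 5 genes were Yap1, Wwtr1, Tead3, Vgll3 and Vgll4, and Tead2 was the gene without a match. Tead1 and Tead4 had no entry, but the letters were also in the called region at the Tead1 start and in 1 of the 3 called promoter regions of Tead4. The called stretches below, free of annotated UTR, are shown because they carry these matches. They are written on the plus strand of GRCm38, with the matches to GGAATG or CATTCC in capitals.
Yap1, at −149 bases (chr9:8004638-8004937): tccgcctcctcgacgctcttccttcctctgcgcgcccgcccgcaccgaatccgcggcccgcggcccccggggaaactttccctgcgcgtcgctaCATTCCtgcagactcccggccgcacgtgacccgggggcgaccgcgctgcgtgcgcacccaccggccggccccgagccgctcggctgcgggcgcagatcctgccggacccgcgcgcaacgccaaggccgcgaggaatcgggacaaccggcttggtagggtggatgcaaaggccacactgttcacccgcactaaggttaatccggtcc
Wwtr1, start site (chr3:57575911-57576096): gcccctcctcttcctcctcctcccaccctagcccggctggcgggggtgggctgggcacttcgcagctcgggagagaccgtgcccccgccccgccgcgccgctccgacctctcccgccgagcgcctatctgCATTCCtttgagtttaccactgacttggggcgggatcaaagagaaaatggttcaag
Tead1, at −138 bases (chr7:112678941-112679240): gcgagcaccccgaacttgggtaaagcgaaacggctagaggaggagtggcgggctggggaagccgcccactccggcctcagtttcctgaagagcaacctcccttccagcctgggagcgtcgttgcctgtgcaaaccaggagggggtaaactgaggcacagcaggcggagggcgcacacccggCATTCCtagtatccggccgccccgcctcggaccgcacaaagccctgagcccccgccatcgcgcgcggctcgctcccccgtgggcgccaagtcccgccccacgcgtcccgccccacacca
Tead3, at −147 bases (chr17:28350825-28351124): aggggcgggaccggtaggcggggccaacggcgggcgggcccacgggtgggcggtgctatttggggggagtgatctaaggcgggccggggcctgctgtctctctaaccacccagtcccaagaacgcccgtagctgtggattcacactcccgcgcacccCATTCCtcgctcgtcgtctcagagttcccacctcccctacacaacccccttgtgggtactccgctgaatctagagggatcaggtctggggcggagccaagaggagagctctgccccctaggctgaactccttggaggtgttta
Vgll3, start site (chr16:65814890-65815189): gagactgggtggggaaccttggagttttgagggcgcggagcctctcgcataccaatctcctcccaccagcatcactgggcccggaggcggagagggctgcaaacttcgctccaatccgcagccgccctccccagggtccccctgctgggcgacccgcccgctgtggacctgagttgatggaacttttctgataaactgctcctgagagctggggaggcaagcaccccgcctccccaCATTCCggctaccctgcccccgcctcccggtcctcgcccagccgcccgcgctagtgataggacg
Vgll4, 860 bases into the gene (chr6:114969181-114969410): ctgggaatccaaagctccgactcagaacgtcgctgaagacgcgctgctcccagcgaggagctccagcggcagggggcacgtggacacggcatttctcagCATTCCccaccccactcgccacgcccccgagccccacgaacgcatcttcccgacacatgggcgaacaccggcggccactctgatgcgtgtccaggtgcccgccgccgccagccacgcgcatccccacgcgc

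In Yap1, Wwtr1, Vgll3, Vgll4 and Tead3 the match began at −141, −136, −63, −82 and −182 bases from a RefSeq start, respectively, and Wwtr1 and Tead3 have a further RefSeq start from which the distance differs. The regions around the matches of Yap1, Wwtr1, Tead1, Vgll3 and Vgll4 were called in all 8 libraries, and the region around that of Tead3 in 6. Over all promoter regions of the 8 genes, 10 of 31 (32.3%) held the letters in their central 300 bp, against 14.0% of all merged regions within 1 kb of a TSS. Away from promoters the order was the opposite, with 21 of 109 regions (19.3%) against 22.4%. The AP-1 letters TGANTCA were in 2 of 31 promoter regions (6.45%, against 12.5%) and in 40 of 109 other regions (36.7%, against 32.7%). The RUNX letters TGTGGT were in 34 of all 140 regions (24.3%, against 27.8%). All motifs were searched on both strands and none contains another. Neighbouring regions of one promoter can share a match, and no test was made of these shares, which describe letters and not binding.

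A peak within 1 kb of a TSS was called in all 8 libraries for 6 of the 8 genes, Yap1, Wwtr1, Tead1, Tead4, Vgll3 and Vgll4. The background was 39.9% of all genes tested. Without BM3, Tead3 joined them, making 7 of 8 against a background of 54.2%. Tead2 was the exception, with a TSS peak in 4 libraries. A peak near any annotated TSS of a gene counted, and the 8 genes had from 2 (Wwtr1) to 16 (Tead2) of them. The background was not matched for this number.

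The highest-scoring TSS peak ordered the genes from Wwtr1 down to Tead2. Its mean percentile over the 8 libraries was 86.0 ± 11.4 (SD, n = 8) for Wwtr1, 81.4 ± 7.09 for Vgll4, 78.0 ± 12.6 for Tead4, 73.6 ± 14.4 for Vgll3 and 71.1 ± 27.0 for Yap1. Lower values were found for Tead1 (57.6 ± 12.99), Tead3 (34.7 ± 25.0) and Tead2 (6.51 ± 13.6), with a library without a TSS peak entered at 0. The first 5 genes lay within 1 SD of their neighbours in this order, whereas Tead2 lay more than 1 SD below Tead3. The SD of Yap1 was set by BM3, without which its mean was 80.1 ± 10.02 (n = 7). The plot of TSS percentiles shows these values by library.

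**Figure D1:**
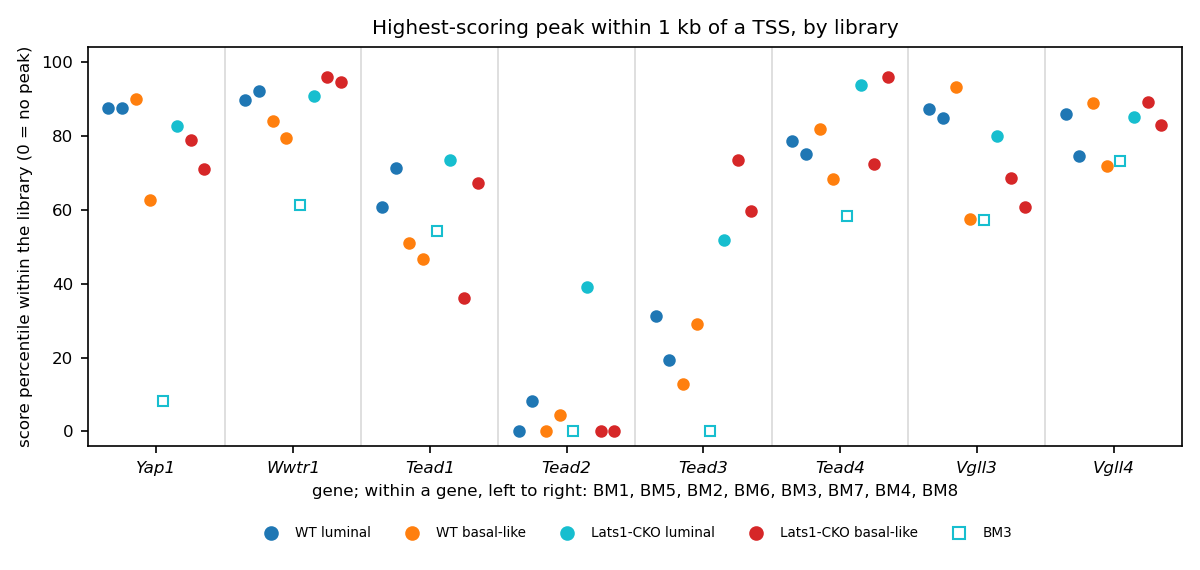
Score percentile of the highest-scoring peak within 1 kb of a TSS (vertical axis, percent rank within the library, 0 where no peak was called) for each gene (horizontal axis), 1 point per library coloured by group, with BM3 as an open square. Wwtr1 and Vgll4 are above 60 in every library, Tead2 is at or below 39.2, and the 3 Lats1-CKO libraries other than BM3 lie above the 4 WT libraries for Tead3.

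Yap1 (ENSMUSG00000053110.13, chr9:7931999-8004596, minus strand) had 13 regions, and its TSS peaks ranked high in all libraries but BM3. The highest TSS percentile was 87.6 in both WT luminal libraries, and 90.0 (BM2) and 62.7 (BM6) in the WT basal-like ones. In the Lats1-CKO libraries it was 8.28 in BM3, 82.6 in BM7, 79.0 in BM4 and 71.1 in BM8. Genotypes and populations overlapped, and BM3 stood far below the rest.

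In every library but BM7 this peak lay in 1 of 2 nearby regions at the main promoter. Both regions were called in all 8 libraries, which differed in which of them ranked higher. The region centred at −149 bases from the start had percentiles of 87.6, 43.6, 8.28, 79.0, 19.3, 62.7, 56.9 and 71.1 in BM1 to BM8. The region 1.1 kb into the gene had 82.6, 90.0, 3.18, 51.7, 87.6, 6.34, 80.1 and 68.3. BM6 ranked the upstream region far above the downstream one and BM5 the reverse, although both were WT. A further region, at an alternative start 38.7 kb into the gene, was called in 6 libraries, all but BM3 and BM6, and gave BM7 its highest percentile (82.6). Away from any TSS, the Yap1 region with the highest mean percentile, absent counted as 0, was intronic, 25.9 kb into the gene. It was called in BM7 alone (64.5).

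The number of Yap1 peaks was 3 and 4 in WT luminal, 4 and 2 in WT basal-like, 2 and 8 in Lats1-CKO luminal (BM3 and BM7), and 5 and 6 in Lats1-CKO basal-like cells. With BM3 the genotypes overlapped, with a difference of 2 peaks (exact permutation p = 0.257, n = 4 and 4). Without it, each Lats1-CKO library had more Yap1 peaks than any WT library, with means of 6.33 ± 1.53 (SD, n = 3) and 3.25 ± 0.957 (SD, n = 4). The difference of 3.08 peaks had a two-sided exact permutation p of 0.0286, the smallest that 35 splits allow, and 0.335 after Benjamini-Hochberg adjustment over all 17758 genes. The same complete separation was found for 9.97% of all genes, and BM4, BM7 and BM8 had the longest lists, so that list length cannot be told apart from genotype here. Most of the additional Yap1 peaks were not shared. Of the 13 regions, 9 were called in exactly 1 library, 7 of them in BM4, BM7 or BM8, and 1 region 796 bases into the gene was called in BM4 (28.3) and BM7 (20.3) and in no other library. Per 10000 peaks of the library, BM4 (0.580) and BM8 (0.606) lay below the WT library BM5 (0.680), so the separation without BM3 was lost. With all 8 libraries this scaled difference was 0.337 (exact permutation p = 0.114, n = 4 and 4). With every list limited to its 10000 highest-scoring peaks, the difference was −0.75, with 0 or 1 peak in each library.

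Wwtr1 (ENSMUSG00000027803.14, chr3:57455649-57575910, minus strand) encodes TAZ, the coactivator related to YAP, and had the highest mean TSS percentile of the 8 genes. The values were 89.6 and 92.1 in WT luminal, 83.9 and 79.4 in WT basal-like, 61.3 (BM3) and 90.9 (BM7) in Lats1-CKO luminal, and 95.8 and 94.6 in Lats1-CKO basal-like libraries. The 2 Lats1-CKO basal-like libraries were the highest, and BM3 was the lowest. Without BM3, the means were 93.8 in Lats1-CKO (n = 3) and 86.3 in WT (n = 4) libraries, with an exact permutation p of 0.143. With BM3 the sign turned, to a difference of −0.588 (exact permutation p = 0.971, n = 4 and 4). In 6 libraries this peak was among the 10000 highest-scoring of its list. That cut takes in a larger part of a shorter list, so BM3 was among the 6 while BM2 and BM6 were not.

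Peaks at Wwtr1 numbered 13 and 9 in WT luminal, 14 and 9 in WT basal-like, 4 and 15 in Lats1-CKO luminal and 13 and 18 in Lats1-CKO basal-like libraries. They fell into 27 regions, of which 3 were called in all 8 libraries: the promoter, a region 48.6 kb into the gene and one 74.0 kb into it. The latter overlapped an annotated exon and had a percentile of 72.7 in BM3 and of 84.1 to 98.5 in the other 7 libraries. Just upstream of the promoter, centred at −356 bases from the start, a smaller region was called in 6 libraries. Its percentile was 68.8, 48.3 and 58.6 in BM4, BM7 and BM8, against 10.9, 11.4 and 39.8 in BM1, BM2 and BM6, with no peak in BM3 and BM5.

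The TEAD genes encode the DNA-binding partners of YAP and TAZ, and differed widely among themselves. Tead1 (ENSMUSG00000055320.17, chr7:112679318-112906807, plus strand) had the longest body and 33 regions. Its peaks numbered 16 and 11 in WT luminal, 14 and 14 in WT basal-like, 3 and 19 in Lats1-CKO luminal, and 16 and 24 in Lats1-CKO basal-like libraries. The genotypes overlapped with BM3 (15.5 against 13.8 peaks, exact permutation p = 0.771, adjusted p = 1) and without it (19.7 against 13.8, exact permutation p = 0.0571, adjusted p = 0.505).

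The Tead1 promoter ranked below that of Wwtr1 in every library and below that of Yap1 in all but BM3. Its percentile was 60.7 and 71.3 in WT luminal, 51.1 and 46.7 in WT basal-like, 54.1 and 73.5 in Lats1-CKO luminal, and 36.0 and 67.2 in Lats1-CKO basal-like libraries. The mean was 50.2 in basal-like and 64.9 in luminal libraries, and the difference of −14.7 had an exact permutation p of 0.114 (n = 4 and 4). BM8 was the basal-like library that overlapped with the luminal ones.

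The strongest Tead1 region lay 145 kb into the gene in an intron, at percentiles of 87.1 to 97.3 in all 8 libraries, well above the promoter. Another intronic region, 24.3 kb in, was the single one of the 140 regions called in BM2 and BM6 (WT basal-like) but not in BM1 or BM5 (WT luminal), a pattern of 1.03% of all regions. Its percentile was 62.5 in BM2 and 28.4 in BM6, and it was also called in BM4 (79.1), BM7 (26.2) and BM8 (45.6). The opposite pattern, both WT luminal and neither WT basal-like library, was seen in 5 of 140 regions (3.57%), against 1.17% of all regions. They were 65.8 and 154 kb into Tead1, at −511 bases from the start of Tead3, and 45.4 and 61.3 kb into Tead4. The WT basal-like region of Tead1 is shown because it held 2 matches to the AP-1 letters, TGAGTCA, which are in capitals.
Tead1, 24.3 kb (chr7:112703533-112703663): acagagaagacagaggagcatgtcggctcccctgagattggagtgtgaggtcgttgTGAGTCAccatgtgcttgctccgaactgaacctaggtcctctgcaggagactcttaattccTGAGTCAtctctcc

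Tead2 (ENSMUSG00000030796.17, chr7:45215753-45233644, plus strand) was nearly without peaks. It had 1 peak in each of BM1, BM5, BM6 and BM7, and none in BM2, BM3, BM4 and BM8. The 4 peaks fell at 4 different places, all near an annotated TSS, with percentiles of 0.217 in BM1, 8.20 in BM5, 4.48 in BM6 and 39.2 in BM7. Corrected for window length, 14.9% of all genes tested had fewer peaks than Tead2.

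Tead3 (ENSMUSG00000002249.21, chr17:28331671-28350817, minus strand) had 7 regions and between 0 peaks (BM3) and 5 peaks (BM8). Its highest TSS percentile was 31.2 and 19.3 in WT luminal, 12.8 and 29.2 in WT basal-like, and 51.8, 73.3 and 59.6 in BM7, BM4 and BM8, with no peak in BM3. The 3 Lats1-CKO libraries with a peak were all above the 4 WT libraries, at 61.6 ± 10.9 (SD, n = 3) against 23.1 ± 8.63 (SD, n = 4). The difference of 38.4 percentile points had a two-sided exact permutation p of 0.0286 and an adjusted p of 0.753 over all genes. The background for this separation was 8.47%. With BM3 entered at 0, the difference was 23.0 (exact permutation p = 0.2, n = 4 and 4), none of the 8 genes separated, and the background was 0.327%.

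At the Tead3 start itself, the region shown above was called in BM1, BM2, BM4, BM6, BM7 and BM8, whereas the value of BM5 came from a region at −511 bases that was called in BM1 (25.3) and BM5 (19.3) and in no other library. The strongest Tead3 region overlapped an exon 9.57 kb into the gene, at percentiles of 58.5 to 93.7 in all libraries but BM3. It lay outside the 1 kb limit, and with 5 kb around every TSS the sign turned. Lats1-CKO minus WT was then −5.65 percentile points without BM3 (exact permutation p = 0.571, n = 3 and 4) and −24.7 with BM3, which has no peak there, entered at 0.

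Tead4 (ENSMUSG00000030353.15, chr6:128224288-128300823, minus strand) had 17 regions. Its peaks numbered 7 and 6 in WT luminal, 5 and 6 in WT basal-like, 4 and 7 in Lats1-CKO luminal, and 11 and 12 in Lats1-CKO basal-like libraries. The Lats1-CKO basal-like libraries were the highest. Without BM3 the genotype means were 10 ± 2.65 (SD, n = 3) and 6 ± 0.816 (SD, n = 4), with an exact permutation p of 0.0571 and an adjusted p of 0.505, and BM7 tied with BM1. With BM3 the difference was 2.5 peaks (exact permutation p = 0.343, n = 4 and 4).

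The highest TSS percentile of Tead4 was 78.6 and 75.0 in WT luminal, 81.8 and 68.3 in WT basal-like, 58.2 and 93.7 in Lats1-CKO luminal, and 72.2 and 95.9 in Lats1-CKO basal-like libraries. BM7 and BM8 were the highest, and BM4 lay within the WT range. In BM5, BM7 and BM8 this peak was at an alternative start 25.0 kb into the gene (75.0, 93.7 and 95.9), a region called in all libraries but BM3. The strongest region overall was intronic, 18.4 kb in, with percentiles of 80.1 in BM3 and of 90.8 to 99.0 in the others. It is shown, as its central 300 bases, because it had the highest mean percentile of the 140 regions. The capitals mark a match to GGAATG and 2 matches to the AP-1 letters.
Tead4, 18.4 kb (chr6:128282238-128282537): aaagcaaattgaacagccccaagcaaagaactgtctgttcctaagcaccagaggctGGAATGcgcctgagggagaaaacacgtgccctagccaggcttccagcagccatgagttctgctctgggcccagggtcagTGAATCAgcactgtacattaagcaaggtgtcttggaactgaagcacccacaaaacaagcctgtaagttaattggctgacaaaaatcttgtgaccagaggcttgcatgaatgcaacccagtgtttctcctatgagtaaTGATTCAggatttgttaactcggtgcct

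Tead4 also held the regions whose calls followed the labels most closely. One, 66.5 kb into the gene, was called in BM4 (21.6), BM7 (16.3) and BM8 (5.16) and in no WT library, the Lats1-CKO pattern. That made 1 of 140 regions, against 1.5% of all merged regions. Another, 45.4 kb in, was called in BM1 (34.5), BM5 (20.4) and BM7 (10.5) and in no basal-like library, the luminal pattern, again 1 of 140 against 0.181% of all regions. BM3 was left out of both patterns and had neither peak. The reverse patterns, called in all WT libraries and in none of BM4, BM7 and BM8 (0.0661% of all regions), or in all basal-like and none of BM1, BM5 and BM7 (0.0917%), were found in 0 of the 140 regions. Both Tead4 regions ranked in the lower part of their lists. Neither held the TEAD or AP-1 letters in its central 300 bp, and the one at 66.5 kb held the RUNX letters there, outside the called stretch printed below.
Tead4, 66.5 kb (chr6:128234263-128234394): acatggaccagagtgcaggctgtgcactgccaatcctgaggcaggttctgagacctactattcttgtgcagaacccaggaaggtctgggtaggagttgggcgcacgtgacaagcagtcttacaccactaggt
Tead4, 45.4 kb (chr6:128255344-128255513): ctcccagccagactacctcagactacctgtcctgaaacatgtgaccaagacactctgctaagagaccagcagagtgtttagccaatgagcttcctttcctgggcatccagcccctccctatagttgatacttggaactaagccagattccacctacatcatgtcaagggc

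Vgll3 (ENSMUSG00000091243.2, chr16:65815257-65866368, plus strand), which encodes a TEAD cofactor, was the gene whose peak number followed the sorted population. It had 4, 4, 3 and 4 peaks in the luminal libraries BM1, BM5, BM3 and BM7. In the basal-like libraries BM2, BM6, BM4 and BM8 it had 5, 6, 6 and 10. The groups did not overlap, with means of 6.75 ± 2.22 and 3.75 ± 0.5 (SD, n = 4 each). The difference of 3 peaks had a two-sided exact permutation p of 0.0286, the smallest that 70 splits allow, and an adjusted p of 1. Complete separation in this direction was found for 0.253% of all genes.

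The extra Vgll3 peaks did not lie at one place and most ranked in the lower part of their lists. A region 35.0 kb into the gene was called in BM2 (38.8), BM4 (79.4) and BM8 (45.6), and one 24.7 kb in was called in BM4 (28.3) and BM8 (4.37). BM6 had neither, but had a peak at 8.65 kb (3.42), where BM7 (46.2) and BM8 (23.6) also had one. The groups overlapped when merged regions were counted in place of peaks (5.25 against 3.25, exact permutation p = 0.0857) and when only the 10000 highest-scoring peaks of each library were used (1.5 against 2). By presence of a TSS peak, a different measure, the fibroblast markers moved the same way. Of 8 genes, 0 to 2 had one in luminal and 3 to 5 in basal-like libraries. With all 8 libraries, the mean TSS percentile was higher in basal-like libraries for 10769 of 17758 genes tested and lower for 3802. Without BM3 this was 6737 and 7824, against 6 and 0 of the 7 fibroblast markers tested. The TSS percentile of Pdgfra was 0 to 78.67 in luminal and 78.68 to 84.0 in basal-like libraries, just without overlap, and that of Pdgfrb was 0 in luminal and 22.3 to 89.9 in basal-like libraries. These were 2 of the 7 fibroblast markers tested, and 0.597% of all genes separated in this way. The other markers tested overlapped, among them Col1a1 with 0 to 41.6 in luminal and 10.3 to 35.4 in basal-like libraries. Lum and Col3a1 had no TSS peak in any library. The part of the fibroblast markers in the Vgll3 result was not tested.

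In contrast to peak number, the Vgll3 promoter did not follow the population. Its percentile was 87.2 and 84.7 in WT luminal, 93.1 and 57.4 in WT basal-like, 57.3 and 79.9 in Lats1-CKO luminal, and 68.6 and 60.7 in Lats1-CKO basal-like libraries. The Lats1-CKO minus WT difference was −14.0 (exact permutation p = 0.171, n = 4 and 4), with overlap because of BM6. Without BM3 it was −10.9 (exact permutation p = 0.314, n = 3 and 4). The strongest region lay in an intron 3.72 kb into the gene, at percentiles of 85.0 to 97.5 in all libraries but BM3 (55.6). It is shown with its matches to GGAATG and to the AP-1 letters in capitals.
Vgll3, 3.72 kb (chr16:65818830-65819128): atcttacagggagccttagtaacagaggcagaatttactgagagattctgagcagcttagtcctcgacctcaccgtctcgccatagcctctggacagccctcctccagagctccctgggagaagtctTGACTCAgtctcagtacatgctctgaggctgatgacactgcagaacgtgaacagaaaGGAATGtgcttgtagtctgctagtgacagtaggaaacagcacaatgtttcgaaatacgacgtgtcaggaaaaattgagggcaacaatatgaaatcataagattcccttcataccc

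Vgll4 (ENSMUSG00000030315.15, chr6:114860628-114969994, minus strand) encodes a cofactor that competes with YAP for TEADs, and had the most peaks per length. They numbered 18 and 15 in WT luminal, 15 and 17 in WT basal-like, 6 and 19 in Lats1-CKO luminal, and 16 and 25 in Lats1-CKO basal-like libraries. Without BM3 this was 1.55 peaks per 10 kb of window, and 87.3% of all genes tested had fewer. The other genes ranged from 0.216 (Tead2) to 1.07 (Tead3), around the median of 0.653 for all genes.

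The TSS percentile of Vgll4 varied little, with an SD of 7.09 over all 8 libraries and of 6.78 without BM3, where that of Wwtr1 was smaller (5.89). It was 85.8 and 74.6 in WT luminal, 88.7 and 71.8 in WT basal-like, 73.2 and 85.0 in Lats1-CKO luminal and 89.1 and 83.0 in Lats1-CKO basal-like libraries, with complete overlap of genotypes and populations. In 7 libraries this peak was not at the outermost start but at an alternative start 48.1 kb into the gene, and in BM1 at one 94.7 kb in, whereas the region 860 bases into the gene ranked at 35.6 to 75.0. Intronic regions at 80.9 and 35.7 kb ranked at 86.0 to 97.6 and 84.6 to 97.8 in the libraries other than BM3.

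**Figure D2:**
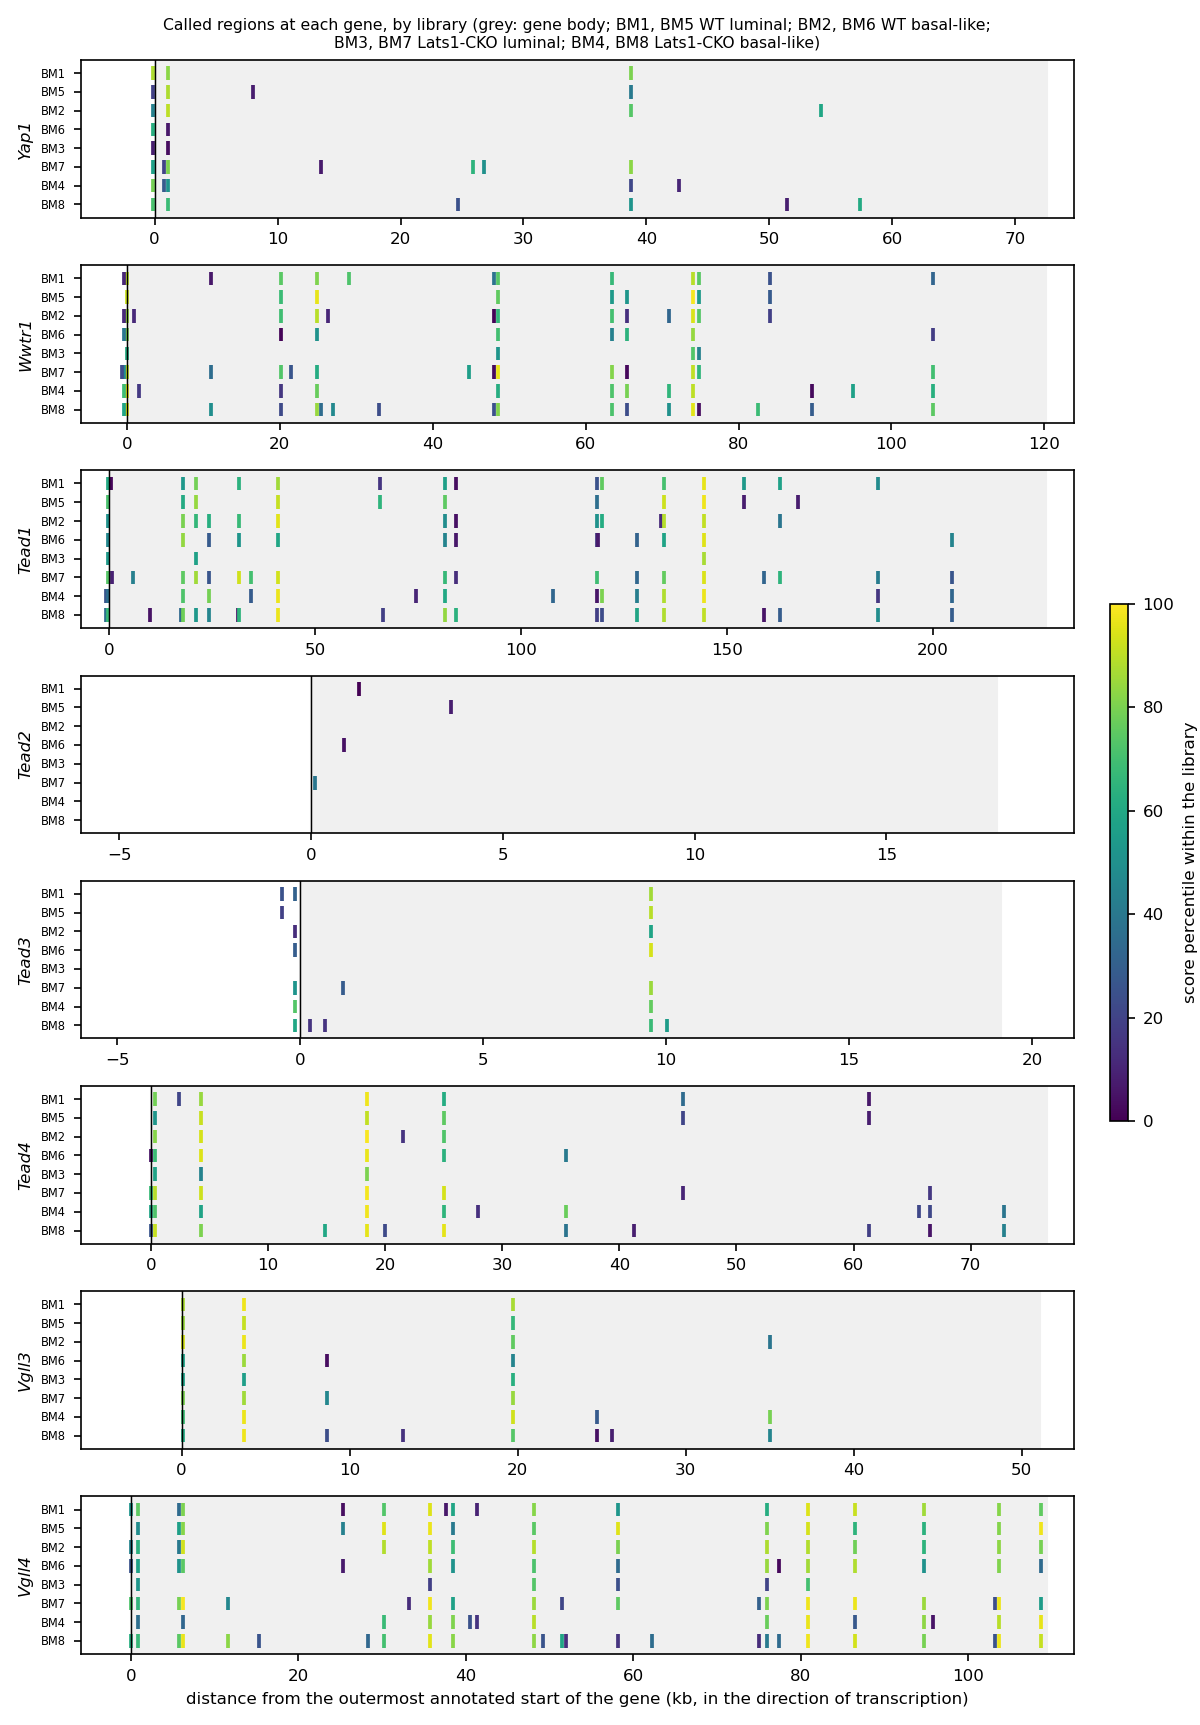
Position of every called region (horizontal axis, kb from the outermost start; 1 row per library) at the 8 genes, coloured by score percentile within the library, with the gene body in grey. Tall columns of bright marks, such as those 18.4 kb into Tead4 and 145 kb into Tead1, are regions called in all libraries, and isolated dark marks are weak peaks of 1 library.

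The count of peaks over all 8 genes was 65, 59, 22, 69, 52, 57, 76 and 100 in BM1 to BM8. It was lowest in BM3 and highest in BM8, the libraries with the shortest and the longest list. Over the 8 genes, the median difference in peak number was 1.13 for Lats1-CKO minus WT and 2.75 for basal-like minus luminal cells, against 0.25 and 0.5 over all genes tested. Without BM3 the medians were 3.42 and 1.04, against 0.667 and 0.0833. The bodies of 6 of the 8 genes reach at least 50 kb, longer windows can hold more peaks, and the medians were not corrected for length.

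**Figure D3:**
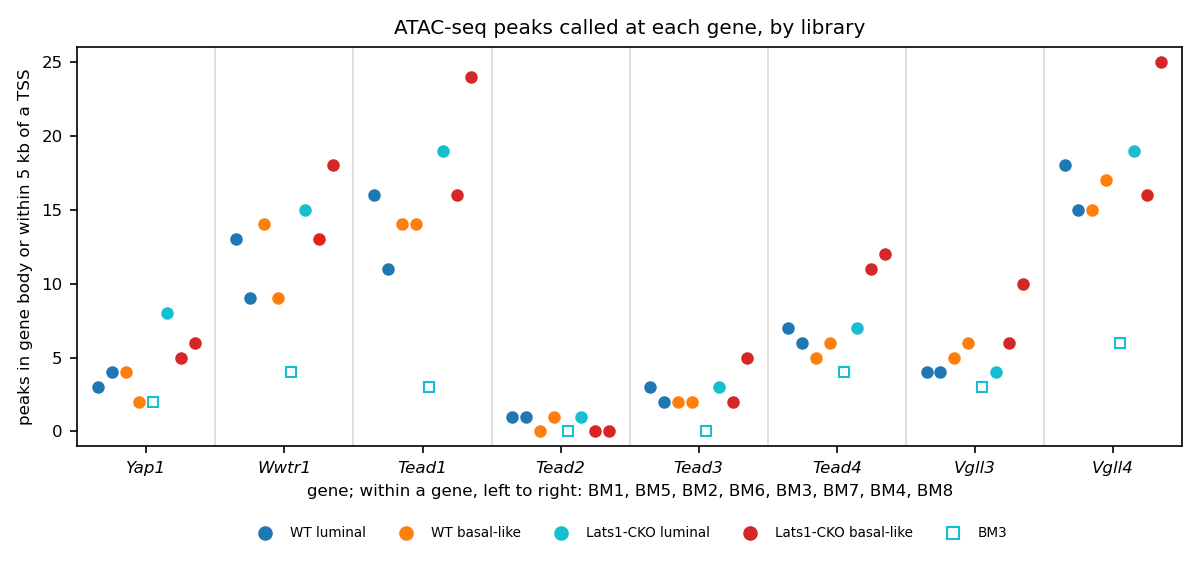
Number of called peaks in the window of each gene (vertical axis) by gene (horizontal axis), 1 point per library coloured by group, with BM3 as an open square. BM3 has the lowest or joint lowest number at all 8 genes, and for Vgll3 the 4 basal-like libraries (5 to 10 peaks) lie above the 4 luminal libraries (3 or 4).

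No adjusted p was under 0.05 for any of the 17758 genes, in either measure or contrast, with all 8 libraries (smallest 1) or without BM3 (smallest 0.335). Of the 32 exact permutation tests of the 8 genes with all libraries, that of Vgll3 peak number by population gave 0.0286 and the others gave at least 0.114. With all 8 libraries, 16 genes for genotype and 45 for population had an unadjusted exact permutation p under 0.05 for peak number, and 163 and 136 for TSS percentile. Genes with more peaks in each Lats1-CKO than in each WT library made up 0.0225% of all genes, and genes with fewer 0.0676%, with 0 of the 8 genes in either class.

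Many regions of the 8 genes were shared between libraries. Of the 140 regions, 18 (12.9%) were called in all 8 libraries, against 5.95% of all regions, and 34 (24.3%) in all 7 libraries other than BM3, against 12.6%. At the other end, 59 (42.1%) were called in exactly 1 library, against 44.5%. Within 1 kb of a TSS lay 31 of the 140 regions, 102 others were intronic and 7 exonic. Of all 183173 regions, 29077 lay within 1 kb of a TSS, and the shares were not matched for this. The difference in sharing was not tested.

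**Figure D4:**
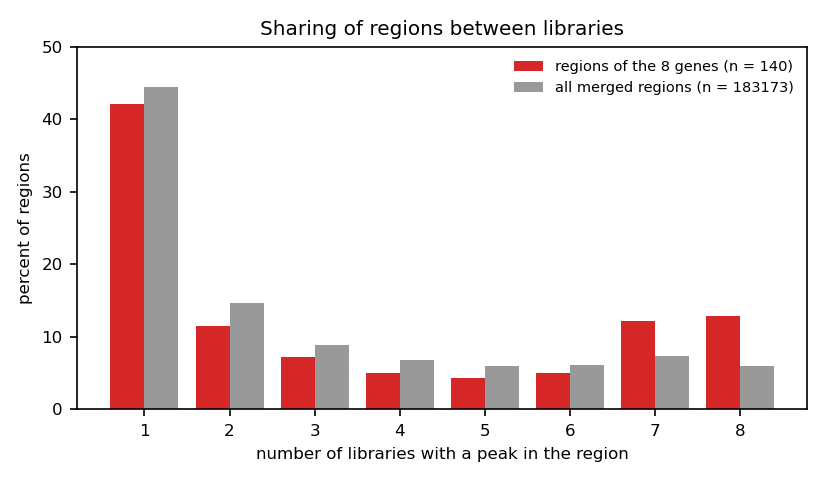
Percent of merged regions (vertical axis) by the number of libraries with a peak in them (horizontal axis), for the 140 regions of the 8 genes (red) and all 183173 regions (grey). The red bars exceed the grey ones at 7 and 8 libraries (12.1% against 7.39%, and 12.9% against 5.95%) and are lower at 1 to 6 libraries.

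The rest of the pathway was described with 2 lists. Of 18 genes of the Hippo kinase core and its scaffolds, 12 had a TSS peak in all 8 libraries and 17 without BM3, and of 20 target genes of YAP and TAZ 10 and 14 did. With all 8 libraries, neither list had a gene whose genotypes or populations separated. Without BM3, 5 kinase and scaffold genes (Mob1b, Nf2, Amotl1, Map4k4 and Ptpn14) and 8 targets (Crim1, Arhgef17, Foxf2, Dock5, Asap1, Rbms3, Myof and Ptpn14) had more peaks in every Lats1-CKO than in every WT library, where the background was the 9.97% given for Yap1. Ptpn14 belongs to both lists. BM4, BM7 and BM8 had the longest peak lists, so that list length cannot be told apart from genotype in these counts. Neither the counts nor the background were corrected for window length.

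By TSS percentile without BM3, Lats1 and Mob1a of the first list and Ccn2, Foxf2 and Rbms3 of the second were above all WT libraries in all 3 Lats1-CKO libraries. These were 2 of 18 and 3 of 20 genes, beside a background of 8.47%. Ccn2, a classical YAP target that encodes a matricellular protein, had percentiles of 40.4, 65.7, 52.2 and 65.4 in the WT libraries BM1, BM2, BM5 and BM6, and of 71.9, 77.6 and 81.9 in BM4, BM7 and BM8. Other classical targets did not share this order. Ankrd1 had 76.5 to 84.2 in the WT libraries and 82.0, 55.7 and 41.5 in BM4, BM7 and BM8, and Ccn1 43.4 to 85.8 and 68.6 to 84.8. In BM3 none of the 3 genes had a TSS peak. The median difference in TSS percentile without BM3 was 5.92 for the kinase core and scaffolds, 11.1 for the targets and 6.48 for the 8 genes, against 2.39 for all genes tested. With all 8 libraries these medians were −0.479, 0.578 and 1.28, against 0.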

How the data were processed

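ATAC-seq peak lists of 8 libraries (4 groups of 2) were used. Per the labels and the study's methods, the authors trimmed reads with cutadapt, aligned them to mm10 with Bowtie 1.0.0, removed mitochondrial reads, duplicates (Picard 2.3.0) and long fragments, and called peaks in each library with MACS2 (2.1.1.20160309 in the submitters' processing notes; the methods name an earlier release). Blacklisted regions were removed. The authors deposited each peak with a score, taken to be that of MACS2, of at least 13 in every list. The lists give no read counts, so depth and counting error are unknown, and the authors' read-based comparison could not be repeated.

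Scores were turned into mid-rank percentiles within each library. Peaks were assigned to GENCODE M21 protein-coding genes, and overlapping or touching peaks of the 8 libraries were merged (median width 153 bp). Motif letters were sought within 300 bp around the centre of a region. Differences were tested per gene with a two-sided exact permutation test over libraries (70 splits of 8 libraries, or 35 of 7) with Benjamini-Hochberg adjustment over 17758 genes, in Python 3.11.15 with numpy 2.4.6, pandas 2.3.3 and pysam 0.24.0. The permutation code was tested on simulated peak numbers. These left out the unequal list lengths, so the check does not cover their effect. The labels do not tie libraries to separate animals, so p-values measure the spread between these libraries.

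The 8 genes, the gene lists and the alternatives were chosen with earlier results of these data known. The text names all 8 genes, each gene's strongest region near to and far from a TSS, and regions with a genotype or population pattern. The RefSeq promoter search, the printed Yap1 and Vgll4 promoters and the further regions named were chosen after their values were seen. The pattern of both WT basal-like libraries and its opposite, that of both WT luminal libraries, were also not planned. Alternatives covered the peak threshold, list length, window, merging, region coverage, motif window and leaving out each library.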

Additional observations from a re-analysis of the deposited data

Results flagged for a closer look

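In 14 cases among 64 groups of 4 libraries, the value of 1 library stood apart from the other 3, with a gap to the nearest that exceeded Dixon's critical value for a group of that size. Chance gives about 1 in 20 such groups. The groups overlap, since each library belongs to a genotype and to a population, and many of the values are small counts with ties.

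BM3, the library with the shortest list, accounted for 6 of the cases. Its Yap1 TSS percentile of 8.28 stood apart from the other Lats1-CKO libraries (71.1 to 82.6) and from the other luminal libraries (82.6 to 87.6). Its Wwtr1 TSS percentile of 61.3 stood apart from the same libraries (90.9 to 95.8 and 89.6 to 92.1). It also had 3 Vgll3 peaks where the other luminal libraries had 4, and 0 Tead2 peaks where they had 1.

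The Yap1 TSS percentile of BM6 was 62.7, against 87.6 to 90.0 in the other WT libraries. Tead2 gave 5 further cases, each resting on a single peak. BM2 had 0 peaks among WT libraries with 1. BM7 had 1 peak, at percentile 39.2, among Lats1-CKO libraries with 0. BM6 had 1 peak, at percentile 4.48, among basal-like libraries with 0. At Tead3, BM1 had 3 peaks where the other WT libraries had 2, and BM8 had 5 where the other basal-like libraries had 2.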

How the results depend on the processing

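Differences in peak number for single genes depended on how many weak peaks were counted, and no difference passed the adjusted threshold under any setting. A cut at 10000 peaks takes out less of BM3, with 14753 peaks, than of the longer lists. With each list limited to its 10000 highest-scoring peaks, the sign turned for Lats1-CKO minus WT at Yap1 (−0.75), Tead3 (−0.5), Vgll3 (−0.5) and Vgll4 (−0.25), and for basal-like minus luminal at Wwtr1 (−1.25), Tead1 (−0.5), Tead4 (−0.25) and Vgll3 (−0.5). With peaks at or above the median score of 78, it turned for genotype at Tead1 (−0.5) and Vgll4 (−1). Per 10000 peaks of the library, it turned for genotype at Tead1 (−0.11) and Tead3 (−0.092), and for population at Wwtr1 (−0.14), Tead4 (−0.27), Vgll3 (−0.028) and Vgll4 (−0.33). With peaks within 5 kb of a TSS, the TSS percentile turned for genotype at Tead3 (−24.7) and Tead4 (−11.1) and for population at Vgll3 (11.2). With the same 5 kb and BM3 left out (added after seeing the data), it turned at Wwtr1 (7.53), Tead3 (−5.65), Tead4 (−3.85) and Vgll3 (0.789). Among promoter peaks alone it turned for genotype at Wwtr1 (2.11). The cause was not tested.

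The separation of Vgll3 by population was lost (0 genes) with the 10000 highest-scoring peaks, at the median score, per 10000 peaks, with 5 kb around every TSS and with merged regions. Per 10000 peaks, both this loss and the turned sign came from BM3, at 2.03. The other luminal libraries had 0.428 to 0.680, and the basal-like libraries 0.695 to 1.17. The 6 genes with a TSS peak in every library became 0 with the 10000 highest-scoring peaks and 1 at the median score. The share of all genes tested under these cuts is not given here, so this drop has no background. The 1 region with the Lats1-CKO pattern became 2 with at least 50% of the region covered (added after seeing the data), 3 at the median score and 0 with BM3 required. The 1 region with the luminal pattern became 0 at the median score and 0 with BM3 required. The planned rule of 50% of the region or of the peak cannot differ from the main rule, because merged regions contain their peaks whole. In the central 150 bp, 14.3%, 22.9% and 13.6% of the regions of the 8 genes held the TEAD, AP-1 and RUNX letters. The shares over all merged regions were 12.6%, 23.2% and 17.8%. Within 1 kb of a TSS, the TEAD letters were in 25.8% of the regions of the 8 genes, against 7.76%.

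Leaving out 1 library turned the sign of 13 of 32 single-gene differences. For genotype, peak number ranged from −0.583 to 4.08 at Wwtr1, −1.08 to 5.92 at Tead1, −0.583 to 1.08 at Tead3, −0.417 to 1.92 at Vgll3 and −2.58 to 3.75 at Vgll4, in each case with the highest value without BM3 and the lowest without BM8. TSS percentile ranged from −3.98 to 7.53 at Wwtr1, −5.03 to 7.46 at Tead1, −3.22 to 9.85 at Tead2, −1.23 to 11.4 at Tead4 and −0.47 to 5.44 at Vgll4. For population, TSS percentile ranged from −10.3 to 16.2 at Yap1, −2.42 to 7.97 at Wwtr1 and −2.82 to 9.02 at Tead4. Separated genes numbered 0 to 1 for peak number by genotype (Yap1, without BM3), 0 to 2 for TSS percentile by genotype (Tead3 without BM3; Yap1 and Vgll3, lower in Lats1-CKO, without BM6) and 0 to 1 by population (Tead1, lower in basal-like, without BM8). Of all genes tested, 9.97% separated as Yap1 did in peak number and 8.47% as Tead3 did. The shares were 1.75% for lower TSS percentile in Lats1-CKO without BM6, and 0.36% for lower TSS percentile in basal-like without BM8. Regions with the Lats1-CKO, WT, basal-like and luminal patterns numbered 1 to 6, 0 to 1, 0 to 2 and 1 to 4. No paired analysis was possible because the labels give no replicate numbers.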
